A study of Mus musculus with 8 samples.

Results

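Matrix metalloproteinases (Mmp genes), secreted ADAMTS proteases (Adamts genes) and the tissue inhibitors of metalloproteinases (Timp genes) were followed in mouse embryonic stem cells (ESCs) grown in 4 culture conditions. Members were taken by symbol alone: Mmp or Adamts followed by a number, with an optional a or b for Mmp, and Timp followed by a digit. This gave 42 members among the 20278 genes listed in at least 1 sample, of which 19 were MMP, 19 were ADAMTS and 4 were TIMP genes. A gene with no entry in a sample was counted as 0 there, and 30 members had an entry in all 8 samples.

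MMPs are zinc endopeptidases that are made as inactive proenzymes and cleave collagens, laminins and other proteins at the cell surface and in the matrix. Membrane-type MMPs are anchored in the plasma membrane, and MMP14 among them activates the gelatinase MMP2 with TIMP2 as a bridge. ADAMTS proteases cleave proteoglycans such as versican and aggrecan, trim procollagens, or act on other matrix and plasma proteins. TIMPs bind the active site of these enzymes, and TIMP3, which stays bound to the matrix, also inhibits several ADAMTS and ADAM proteases. Fibroblasts are a known source of many of these proteins.

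RNA was sequenced from N33, a single C57BL/6 ESC line, with 2 biological replicates per condition and LIF at 1000 U/ml throughout. Cells were grown in 20% serum on gelatin without feeders (−F), in 20% serum on feeders (F), in serum on feeders with both 2i inhibitors (F2i), or feeder-free and serum-free in N2B27 medium plus 2i (NB2i). In NB2i the MEK inhibitor PD0325901 was at 1 µM and the GSK3 inhibitor CHIR99021 at 3 µM, and plates carried poly-L-ornithine and laminin. The inhibitor doses in F2i were not stated in the sources used here. Feeders were mouse embryonic fibroblasts inactivated with mitomycin C, which were depleted before RNA extraction by differences in attachment. F and −F differed in feeders, F2i and F in 2i, NB2i and F2i in feeders, serum, basal medium with its supplements (N2B27 in place of knockout DMEM) and coating together, and NB2i and −F in serum, basal medium, inhibitors and coating together.

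Totals per sample were from 20129641 to 20664488 expected counts. All 9 ESC markers were above 0 in every sample, and their summed level was from 3498 to 4344 FPKM. The summed level of 15 embryonic fibroblast markers was from 13.8 to 14.0 FPKM in −F, from 274 to 285 in F, from 696 to 705 in F2i and from 1.99 to 2.38 in NB2i. Postn, Lum, Dcn, Tcf21 and S100a4 were at 0 in both NB2i samples, and Lum was also at 0 in both −F samples. In such bulk RNA, fewer cells of a type and less RNA per cell cannot be told apart. Fibroblast marker RNA was higher in the feeder conditions, and it also differed between F and F2i and between −F and NB2i. The part of this marker RNA in the member levels below was not tested. Of the other marker lists, extraembryonic endoderm was at 12.9 to 13.5 FPKM in F and 3.07 to 5.6 elsewhere, and endothelial markers were from 2.49 to 6.34 FPKM over all samples. Macrophage markers were from 6.15 to 19.1 FPKM, highest in NB2i, where Cd68 was at 17.75 and 19.07. Adgre1 was at 0 in −F and NB2i and at 0.35 and 0.31 in F, and trophoblast markers were from 35.8 to 67.9 FPKM.

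Of the 42 members, 22 reached a mean of at least 1 FPKM in some condition, 9 reached 5 FPKM and 6 reached 10 FPKM. The 6 were Timp1, Timp2, Timp3, Mmp11, Mmp14 and Mmp17. The 5 members with their highest mean in NB2i were Timp1, Mmp11, Mmp17, Mmp28 and Adamts9, although for Mmp11 the NB2i and −F ranges overlapped.

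The summed FPKM of the TIMP members varied more than that of either protease family. It was 25.5 ± 0.849 (SD, n = 2) in −F, 64.1 ± 1.16 in F, 101.6 ± 2.59 in F2i and 58.5 ± 2.23 in NB2i. The MMP sum was 65.6 ± 1.43, 65.8 ± 0.608, 60.7 ± 0.318 and 45.8 ± 0.113 FPKM in the same order. The ADAMTS sum was lower throughout, at 18.4 ± 0.445, 21.7 ± 0.672, 22.0 ± 0.099 and 11.8 ± 0.113 FPKM. On FPKM, TIMP RNA came to 0.391 and 0.385 of MMP RNA in the −F samples, 0.968 and 0.981 in F, 1.7 and 1.65 in F2i, and 1.24 and 1.31 in NB2i. FPKM divides by transcript length. On expected counts, an alternative chosen after seeing the data, the ratio was 0.184 and 0.191 in −F, 0.56 and 0.541 in F, 1.46 and 1.38 in F2i, and 0.39 and 0.406 in NB2i, so that NB2i lay below F and not above it. Likewise, sums of counts scaled to depth and to the TMM factor of each sample, without transcript length (CPM), gave other sizes. Relative to −F, the TIMP sum in F2i was 3.98-fold on FPKM and 8.03-fold on CPM, and in NB2i it was 2.29-fold on FPKM and 1.51-fold on CPM. The MMP sum in F2i was 0.924 of that in −F on FPKM but 1.06 on CPM, so that its direction was not settled.

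**Figure D1:**
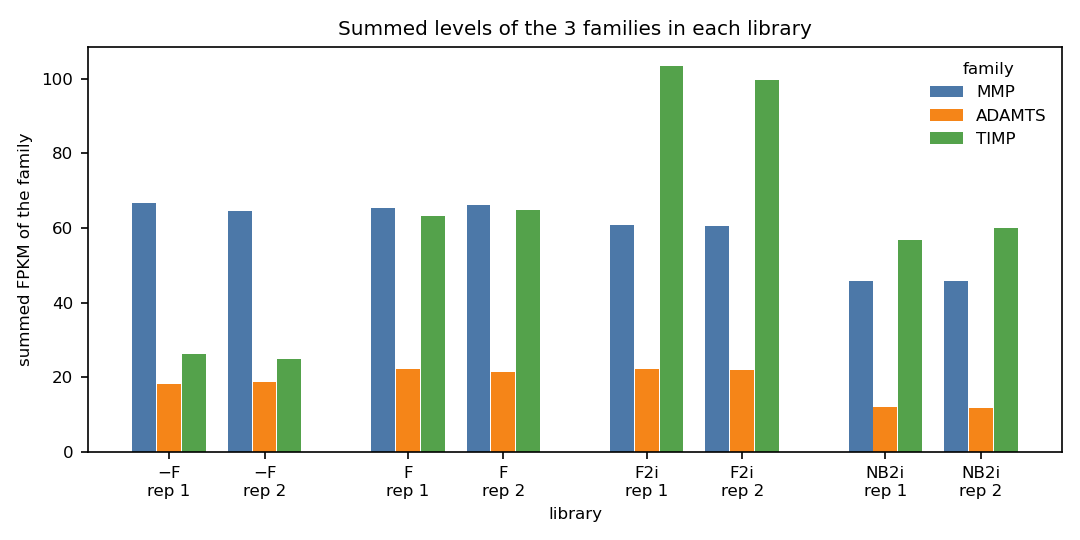
Summed FPKM of the MMP, ADAMTS and TIMP members in each sample (library), with 1 bar per family starting at 0 and the 2 replicates of each condition side by side. The TIMP bars go from a mean of 25.5 FPKM in −F to 101.6 in F2i, and the MMP bars are lowest in NB2i with a mean of 45.8.

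The composition of the inhibitor RNA also differed. Timp1, whose protein is a poor inhibitor of most membrane-type MMPs, made up 82.7% and 79.6% of TIMP FPKM in −F and 71.5% and 74.1% in F. Its share was 41.7% and 43.2% in F2i, where Timp2 and Timp3 were high, and 98.4% and 98.5% in NB2i. Timp4 had 1 read in a single F sample and none in the other samples.

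**Figure D2:**
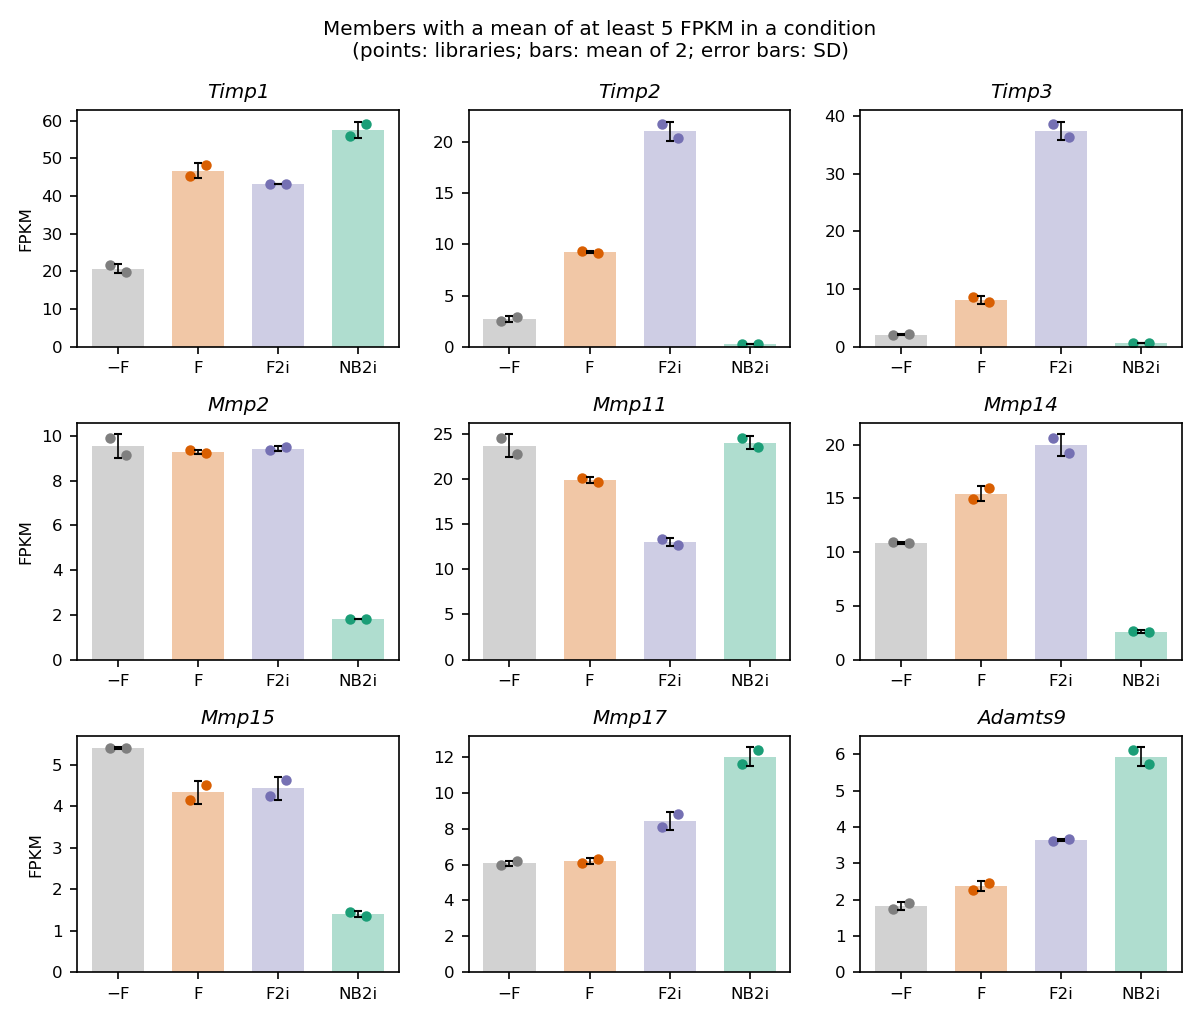
FPKM (vertical axis, from 0) of the 9 members that reached a mean of 5 FPKM, by condition, with points for the 2 samples, bars for their mean and error bars for the SD. Timp2 and Timp3 span from below 1 FPKM in NB2i to above 20 and 36 FPKM in F2i, whereas Mmp2 stays between 9.17 and 9.92 FPKM in every serum sample and falls to 1.83 and 1.81 in NB2i.

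Differences between conditions were tested on counts, and "rose" and "fell" below mean an adjusted p under 0.05 with at least a 2-fold change. Of the 42 members, 33 had the 10 counts in 2 samples needed for testing. The 9 without were Mmp1b, Mmp10, Mmp12, Mmp13, Mmp20, Mmp21, Adamts16, Adamts18 and Timp4, each at 0.20 FPKM or less in every sample. Mmp3 passed this requirement through the F samples alone, so that its call was bound to the condition in which it was seen. Among the 33, 27 rose or fell in at least 1 of 4 comparisons, and Adamts5, Timp2 and Timp3 did so in all 4. Neither share was counted over all genes, of which 7.24% to 27.2% were called in single comparisons. These counts therefore do not set the members apart. The 6 that never rose or fell were Mmp11, Mmp23, Adamts7, Adamts13, Adamts17 and Adamts20. Over the 8 samples Mmp11 was from 12.7 to 24.5 FPKM, Mmp23 from 2.19 to 3.94, the von Willebrand factor protease Adamts13 from 1.89 to 4.41, Adamts7 from 0.48 to 1.14, Adamts17 from 0.14 to 0.28 and Adamts20 from 0.05 to 0.25. Exons on the opposite strand also overlap Mmp11 (155 bases, Chchd10) and Mmp24 (637 bases, BC029722), among others, and reads of such pairs cannot be told apart if strand was not kept. Chchd10 was at 428 and 381 FPKM in −F, 394 and 415 in F, 267 and 274 in F2i, and 522 and 506 in NB2i, lowest in F2i as Mmp11 was, and its part in the Mmp11 values was not tested. The comparisons share samples (F, F2i, −F and NB2i each enter 2 of them), so their values are set side by side and not correlated. Where groups are said below not to overlap, each has 2 samples, and the share of all genes without overlap was not counted.

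**Figure D3:**
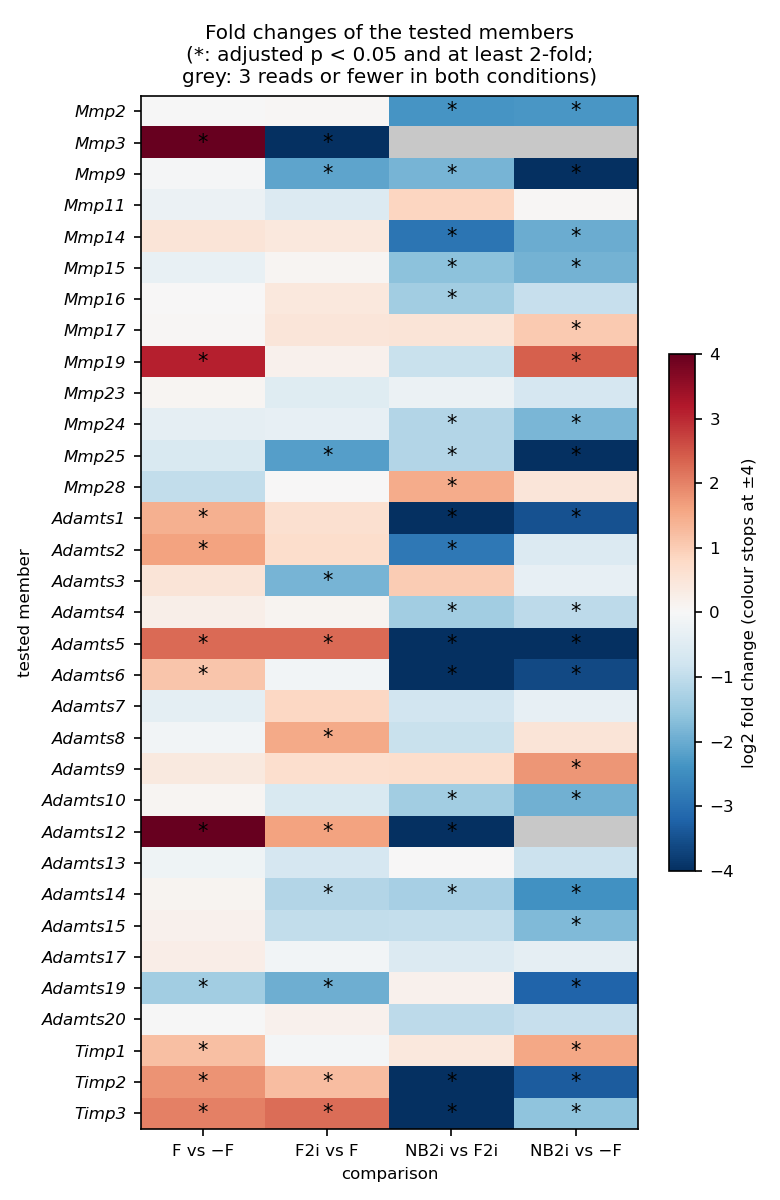
Log2 fold changes of the 33 tested members in the 4 comparisons, from blue (lower in the first condition) to red (higher), with asterisks for members past both thresholds and grey where both conditions held 3 reads or fewer. The NB2i against F2i column holds 17 falls and 1 rise, and the F against −F column 10 rises and 1 fall.

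The first comparison, F against −F, asked what feeders changed in serum. All 3 testable inhibitors rose with feeders, together with Mmp3, Mmp19, Adamts1, Adamts2, Adamts5, Adamts6 and Adamts12, and only Adamts19 fell among the 33. These 10 rises and 1 fall came to 33.3% of the tested members, against 7.24% of all 15287 genes tested (5.59% higher and 1.65% lower). The members' median log2 fold change was 0.10, and that of all genes was 0.00. By family, 2 of 13 MMP, 5 of 17 ADAMTS and 3 of 3 TIMP members rose.

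The inhibitor genes lie apart in the genome, Timp1 at chrX:20870166-20874737, Timp2 at chr11:118301061-118355411 and Timp3 at chr10:86300412-86349505 (GRCm38). Timp1 was at 21.6 and 19.8 FPKM in −F and at 45.3 and 48.1 in F. Timp2, the inhibitor that links MMP14 to proMMP2, was at 2.5 and 2.94 FPKM in −F and 9.34 and 9.17 in F. The matrix-bound inhibitor Timp3 went from 2.01 and 2.13 to 8.65 and 7.67 FPKM. Both F samples lay above both −F samples for each of the 3 genes. Their fold changes were 2.29 for Timp1 (log2 1.20, SE 0.072, adjusted p = 1.4e-11), 3.46 for Timp2 (log2 1.79, SE 0.085, adjusted p = 2.6e-13) and 4.0 for Timp3 (log2 2.00, SE 0.083, adjusted p = 2.4e-14). Exons of Timp3 share 1733 bases with Syn3 on the opposite strand, and whether the libraries kept strand was not stated in the sources used here. Syn3 itself was between 0.24 and 0.33 FPKM in all samples.

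Among the proteases, Mmp3 (stromelysin-1, which cleaves many matrix proteins and other proMMPs) had no read in −F and was at 0.72 and 0.73 FPKM in F. With 53 reads in F and none in −F it was at least 18-fold higher (adjusted p = 3.2e-06, taking 3 reads over the group as the floor). Leaving out either F sample removed Mmp3 from the test. Mmp19, which acts on basement membrane proteins, was at 0.10 and 0.15 FPKM in −F and 1.25 and 0.88 in F, an 8.63-fold rise (log2 3.11, SE 0.32, adjusted p = 1.1e-07). Mmp19 shares 789 exonic bases with Tmem198b on the opposite strand, a gene that lay between 3.86 and 5.84 FPKM. Tmem198b was at 3.86 and 4.28 FPKM in −F and 4.76 and 4.75 in F, and its part in the Mmp19 values was not tested.

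Adamts12 was at 0.02 and 0 FPKM in −F and 0.41 and 0.48 in F. With 3 reads in −F against 115 in F, the ratio was 39 with a 95% counting interval from 13 to 192 (exact binomial, adjusted p of the edgeR test = 2.7e-08). The proteoglycan-cleaving Adamts5 rose from 0.05 and 0.08 to 0.26 and 0.33 FPKM, 4.75-fold (adjusted p = 3.7e-06). Adamts1, a versican-cleaving relative, rose 2.67-fold from a mean of 0.945 to 2.48 FPKM. Adamts2, which removes the amino propeptide of fibrillar procollagens, rose 3.07-fold from a mean of 0.345 to 1.04 FPKM, while its paralogs Adamts3 and Adamts14 did not pass the test (adjusted p = 0.27 and 0.31). Adamts6 rose 2.15-fold (adjusted p = 0.001), and without −F replicate 1 its log2 change was 0.74 and no longer a call. Adamts19, of no well established substrate, was at 0.38 and 0.43 FPKM in −F and at 0.15 in both F samples (log2 −1.39, adjusted p = 0.002), and DESeq2 did not call it (log2 −1.42).

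The membrane-type and gelatinase genes changed by less than 2-fold. Mmp14 passed the p threshold at 1.44-fold, from 10.95 and 10.81 FPKM in −F to 14.9 and 15.9 in F. Mmp2 was at 9.92 and 9.17 FPKM in −F and 9.36 and 9.23 in F (log2 −0.02, SE 0.068, adjusted p = 0.88), so that the groups overlapped. Mmp9, the other gelatinase, was at 2.12 and 2.27 against 2.08 and 2.09 FPKM (log2 −0.05, SE 0.13). Mmp11, a stromelysin-like enzyme activated inside the cell by furin, was slightly lower with feeders, at 24.5 and 22.7 against 20.1 and 19.7 FPKM (log2 −0.25, SE 0.061). Mmp15, Mmp25 and Mmp28 were also past the p threshold in the lower direction but under 2-fold.

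Beside these values, the summed fibroblast markers were 20.2-fold higher in F than in −F, and all 14 testable ones rose. The TIMP genes rose by 2.29-fold to 4.0-fold. Of 44 fixed partner genes of these proteases (activators, receptors, other inhibitors and related proteases), 41 were tested, of which 14 rose. The most changed were Fap, a fibroblast surface peptidase, the hyaluronan receptor Cd44 (27.7-fold), the inhibitor Tfpi2, Adam12 (12.6-fold) and the lysosomal collagenase Ctsk (12.4-fold).

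The secreted MMP genes that lie side by side on chromosome 9 had almost all of their reads in F. The stretch runs over chr9:7272514-7699585 (GRCm38), 427 kb, and holds 10 RefSeq genes of the naming rule, 6 of them members: Mmp1b, Mmp3, Mmp10, Mmp12, Mmp13 and Mmp20. Mmp1a, Mmp7, Mmp8 and Mmp27 had no entry under these names in any sample, and so are not among the members. Summed over the 6, expected counts were 2 and 1 in −F, 57 and 48 in F, 4 and 2 in F2i, and 0 and 0 in NB2i. Mmp3 gave 26 and 27 of the F reads, the metalloelastase Mmp12 15 and 8, the collagenase Mmp13 9 and 8, and the stromelysin Mmp10 6 and 5, with 1 further read from Mmp20. Mmp10 was at least 3.73-fold and Mmp12 at least 7.8-fold higher in F than in −F, and the ratio for Mmp13 was 17.3 (95% counting interval 2.71 to 723). These intervals and floors cover counting error only. The fibroblast markers were higher still in F2i in sum, where the run had 4 and 2 reads. Of the 14 tested, 7 rose from F to F2i, and Dcn, Lum, S100a4 and Twist2 did not pass the p threshold. The summed extraembryonic endoderm markers were also highest in F, as were Adgre1, Ptprc and Cd14 among the macrophage markers. Csf1r was highest in −F, and Cd68 and the macrophage sum were highest in NB2i. The part of any of these marker lists in the reads of the run was not tested.

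**Figure D4:**
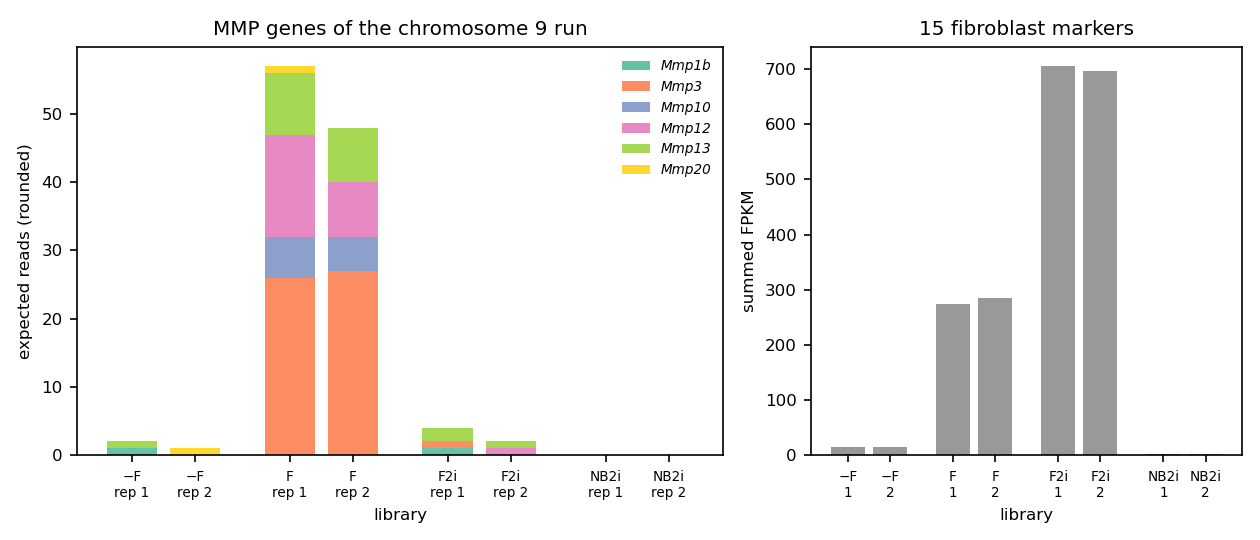
Expected counts of the chromosome 9 MMP members in each sample (left, stacked bars by gene from 0) beside the summed FPKM of the 15 fibroblast markers (right). The F samples reach 57 and 48 reads and no other sample exceeds 4, while the marker bars are highest in F2i.

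AP-1, the Fos and Jun dimer, is a known regulator of stromelysin and collagenase genes through the motif TGANTCA, which was searched on both strands of RefSeq promoters (250 bases before to 50 after each start, GRCm38.p6). A promoter was present in the table for 28 members. None was available for Mmp2, Mmp9, Mmp16, Mmp17 and Mmp19, so these could not be searched. The same held for Adamts4, Adamts5, Adamts6, Adamts7, Adamts8, Adamts10, Adamts15, Adamts16 and Adamts19. The motif was found in 6 of 28 (21.4%), against 8.97% of 27025 genes. It lay in all 6 chromosome 9 members and in none of the other 22 that could be searched. The 4 promoters whose genes had at least 5 reads in each F sample are given as the 120 bases before the start site, 5′ to 3′ on the gene's strand (all plus), with the match in capitals.
Mmp3, chr9:7445702-7445821: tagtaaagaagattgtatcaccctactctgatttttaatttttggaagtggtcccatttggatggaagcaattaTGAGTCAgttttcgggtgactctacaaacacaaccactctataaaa
Mmp10, chr9:7502222-7502341: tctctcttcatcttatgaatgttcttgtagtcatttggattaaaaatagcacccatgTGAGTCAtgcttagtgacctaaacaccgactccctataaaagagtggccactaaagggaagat
Mmp12, chr9:7347254-7347373: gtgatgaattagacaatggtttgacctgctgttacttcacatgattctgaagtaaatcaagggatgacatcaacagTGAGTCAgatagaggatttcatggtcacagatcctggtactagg
Mmp13, chr9:7272394-7272513: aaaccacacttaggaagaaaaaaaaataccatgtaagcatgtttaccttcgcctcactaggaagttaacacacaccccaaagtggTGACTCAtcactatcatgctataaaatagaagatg

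The match began 46 bases before the start in Mmp3, 63 in Mmp10, 44 in Mmp12 and 35 in Mmp13. It also began 93 bases before the start in Mmp1b, which had 0 and 0 reads in the F samples. In Mmp20, with 1 and 0 reads in the F samples, it began 95 bases before. Mmp12 has another listed start site, whose 120 bases hold no match. The stricter TGACTCA, which on both strands is the same search as TGAGTCA, was in 5 of 28 members (17.9%) and 5.95% of all genes. After the values were seen, base composition was also counted. The chromosome 9 promoters held 0 to 3 CG pairs with a median of 1, the other 22 members' 2 to 44 with a median of 21, and those of all genes 0 to 67 with a median of 8. TATAAA was present in 6 of 6, 2 of 22 (9.09%) and 15.7% respectively. A match is a stretch of letters and does not show that a factor binds there.

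The second comparison, F2i against F, asked what the inhibitors changed on feeders in serum. Timp2, Timp3, Adamts5, Adamts8 and Adamts12 rose, and Mmp3, Mmp9, Mmp25, Adamts3, Adamts14 and Adamts19 fell. This was 5 up and 6 down of 33, or 33.3%, where 13.4% of all genes were called (6.44% higher, the remainder lower). Median log2 fold changes were 0.06 for the members and −0.00 for all genes. Of 13 tested MMP genes 3 fell, and Mmp14 and Mmp17 were past the p threshold upward at under 2-fold.

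Timp3 was the inhibitor that changed most, from 8.65 and 7.67 FPKM in F to 38.6 and 36.3 in F2i, 4.71-fold (log2 2.24, SE 0.057, adjusted p = 2.8e-18). Timp2 went from 9.34 and 9.17 to 21.7 and 20.4 FPKM, 2.34-fold (log2 1.22, SE 0.065, adjusted p = 5.9e-13). Both genes had their highest levels of the study in F2i, with no overlap with any other condition. Timp1 did not pass the test. It was at 45.3 and 48.1 FPKM in F and 43.1 in both F2i samples (log2 −0.08, SE 0.065, adjusted p = 0.33).

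Adamts5 rose 4.82-fold, from 0.26 and 0.33 to 1.32 and 1.46 FPKM (log2 2.27, SE 0.17, adjusted p = 1.4e-10). Adamts12 rose 3.07-fold to a mean of 1.34 FPKM, and the proteoglycan-cleaving Adamts8 rose 2.85-fold to 0.445 FPKM. Adamts1, Adamts2, Adamts7 and Adamts9 were past the p threshold at 1.57-fold to 1.79-fold. The fibroblast markers were 2.5-fold higher in F2i than in F in sum, and 7 of 14 rose, and the part of marker RNA in these rises was not tested.

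The genes that fell included both secreted and membrane-anchored proteases. Mmp9, gelatinase B, was at 2.08 and 2.09 FPKM in F and at 0.42 and 0.52 in F2i, a log2 change of −2.11 (SE 0.18, adjusted p = 1.9e-09). Mmp25, anchored by a glycolipid, went from 2.03 and 1.80 to 0.26 and 0.56 FPKM (log2 −2.21, SE 0.21, adjusted p = 1.3e-08). Neither overlapped between the groups. Mmp3 fell from 53 reads to 1, a ratio of 51.2 (95% counting interval 8.8 to 2061, adjusted p = 4.4e-06). It was tested only because of its F reads, and leaving out either F sample removed it from this comparison. In the same run, Mmp10 was at least 3.54-fold higher in F than in F2i, and the ratios of F to F2i were 22.2 (3.61 to 916) for Mmp12 and 5.48 (1.58 to 29.2) for Mmp13.

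The procollagen N-proteinase Adamts14 fell from a mean of 4.78 to 2.06 FPKM (log2 −1.18, SE 0.086, adjusted p = 1.4e-10). Its paralog Adamts3 fell from 0.13 to 0.035 FPKM (log2 −1.86), whereas the third of the group, Adamts2, was 1.62-fold higher. Adamts19 fell to 0.01 and 0.06 FPKM (log2 −1.96, adjusted p = 0.0052), a call lost without F2i replicate 1 (log2 −1.21). Mmp14 was 1.33-fold and Mmp17 1.40-fold higher in F2i, while Mmp11 was lower, at 13.3 and 12.7 FPKM against 20.1 and 19.7 (log2 −0.54). Mmp2 was at 9.36 and 9.53 FPKM in F2i and did not differ beyond the spread (adjusted p = 0.46). Among the 41 partners tested, 3 rose and 2 fell: A2m (log2 2.75), Adam12 (1.15) and Pcsk5 (1.00) were higher, and Tfpi2 (−3.12) and the urokinase receptor Plaur (−1.28) were lower.

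**Figure D5:**
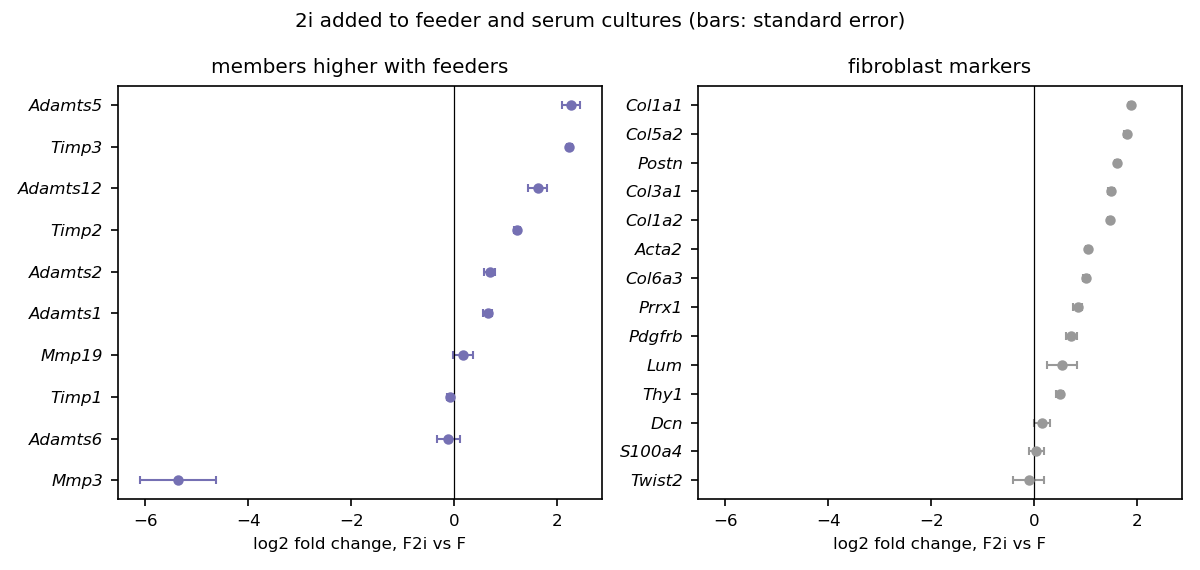
Log2 fold change of F2i against F, with standard errors, for the 10 members that rose with feeders (left) and the 14 testable fibroblast markers (right). Timp2, Timp3, Adamts5 and Adamts12 lie above 1, as 7 markers do, whereas Mmp3, with 1 read in F2i, lies at a fitted −5.37.

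The third comparison set NB2i against F2i, both with 2i, although the doses were stated for NB2i alone. Feeders, serum, basal medium and coating changed at once and cannot be told apart. Here 17 of the 33 tested members fell and 1 rose, or 54.5%, against 19.3% of all genes (6.01% higher and 13.3% lower). The median log2 fold change was −1.17 for members and 0.02 for all genes. The falls took in Timp2 and Timp3, 7 MMP and 8 ADAMTS genes, and the rise was Mmp28.

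Timp2 was at 21.7 and 20.4 FPKM in F2i and at 0.28 and 0.24 in NB2i, an 80.6-fold difference (log2 −6.33, SE 0.12, adjusted p = 5.1e-21). Timp3 went from 38.6 and 36.3 to 0.62 and 0.68 FPKM, 57.0-fold (log2 −5.83, SE 0.087, adjusted p = 6.5e-23). Timp1 was at 43.1 in both F2i samples and at 56.0 and 59.1 FPKM in NB2i (log2 0.42, SE 0.063, adjusted p = 5.7e-06), under 2-fold. In NB2i, Timp1 was the only inhibitor above 1 FPKM.

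Adamts12 had 342 reads in F2i, at 1.44 and 1.24 FPKM, and none in NB2i, which makes it at least 115-fold lower (adjusted p = 1.1e-12). Adamts5 had 462 reads in F2i and 1 in NB2i, at 0.01 and 0 FPKM, a ratio of 468 (95% counting interval 83.6 to 18525, adjusted p = 1.7e-14). Adamts1 fell 47.5-fold to a mean of 0.08 FPKM and Adamts6 24.6-fold to 0.02 FPKM. Smaller falls were measured for Adamts2 (7.22-fold), Adamts4 (2.6-fold), Adamts10 (2.61-fold), a protein of fibrillin microfibrils, and Adamts14 (2.52-fold).

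Mmp14 and Mmp2, whose product MMP14 activates, both fell. Mmp14 fell 7.64-fold from 20.7 and 19.2 to 2.68 and 2.52 FPKM (log2 −2.93, SE 0.073, adjusted p = 9.4e-19), and Mmp2 fell 5.17-fold from 9.36 and 9.53 to 1.83 and 1.81 FPKM (log2 −2.37, SE 0.090, adjusted p = 1.4e-15). The membrane-type gene Mmp15 was at 4.24 and 4.63 FPKM in F2i and 1.45 and 1.36 in NB2i, 3.14-fold lower. Mmp9 fell 3.6-fold and Mmp16 2.6-fold. Mmp24 and Mmp25 were 2.25-fold and 2.24-fold lower, but both calls rested on single samples. Without NB2i replicate 1 the log2 change was −0.56 for Mmp24 and −0.83 for Mmp25, without F2i replicate 2 it was −1.10 and −0.52, and Mmp24 also lost its call without F2i replicate 1 (−1.24) and in DESeq2 (−1.20).

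Mmp28 (epilysin) was the exception in the other direction, at 0.21 and 0.27 FPKM in F2i and 0.70 and 0.61 in NB2i (2.77-fold, adjusted p = 0.0005). Its exons share 466 bases with 1700020L24Rik on the opposite strand, at 0.16 and 0.21 against 0.56 and 0.45 FPKM. Mmp11 (1.8-fold), Mmp17 (1.43-fold) and Adamts9 (1.64-fold) were also past the p threshold upward but short of 2-fold. Chchd10, which overlaps Mmp11, was higher in NB2i as well. Adamts9 shares 1381 exonic bases on the opposite strand with A730049H05Rik, which had no entry under that name in any sample. All 14 testable fibroblast markers fell in this comparison, as did 23 of 41 partners. The partners with the largest falls were Fap, Cd44, the procollagen C-proteinase Bmp1, Ctsk and Tfpi2.

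The fourth comparison, NB2i against −F, set the feeder-free conditions against each other. Among the 33 tested members 16 fell and 4 rose, or 60.6%, against 27.2% of all genes (11.1% higher and 16.1% lower), with a median log2 fold change of −1.05 for members and 0.01 for all genes. The rises were Timp1, Mmp17, Mmp19 and Adamts9. The falls were Timp2, Timp3, Mmp2, Mmp9, Mmp14, Mmp15, Mmp24, Mmp25, Adamts1, Adamts4, Adamts5, Adamts6, Adamts10, Adamts14, Adamts15 and Adamts19.

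The inhibitors divided. Timp1 was at 21.6 and 19.8 FPKM in −F and 56.0 and 59.1 in NB2i, 2.91-fold higher (log2 1.54, SE 0.070, adjusted p = 1.4e-14). Timp2 was at 2.5 and 2.94 against 0.28 and 0.24 FPKM, 9.98-fold lower (log2 −3.32, SE 0.17, adjusted p = 1.6e-13). Timp3 was at 2.01 and 2.13 against 0.62 and 0.68 FPKM, 3.03-fold lower (log2 −1.60, SE 0.14, adjusted p = 7.8e-10). With 2 samples each, the groups did not overlap for any of the 3.

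Both gelatinases fell. Mmp9 was at 2.12 and 2.27 FPKM in −F and at 0.15 and 0.11 in NB2i (log2 −4.01, SE 0.23, adjusted p = 1.1e-12), and Mmp2 was 5.0-fold lower (log2 −2.32, SE 0.090). Of the membrane-type genes, Mmp25 was at 2.97 and 3.00 against 0.13 and 0.23 FPKM (log2 −3.99, SE 0.23, adjusted p = 1.1e-12). Mmp14 fell 4.0-fold from 10.95 and 10.81 FPKM, Mmp15 fell 3.67-fold from 5.39 and 5.41 FPKM, and Mmp24 fell 3.58-fold. Mmp17, the other glycolipid-anchored MMP, went the opposite way, from 5.97 and 6.17 to 11.6 and 12.4 FPKM (2.07-fold, log2 1.05, SE 0.066, adjusted p = 4.4e-12). Mmp19 rose 5.2-fold to 0.50 and 0.77 FPKM. Tmem198b, which overlaps it, went from 3.86 and 4.28 FPKM in −F to 5.50 and 5.77 in NB2i. Mmp11 was at 24.5 and 23.5 FPKM in NB2i with overlapping groups (log2 0.06, SE 0.059).

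Adamts5 had 21 reads in −F and 1 in NB2i, a ratio of 20.2 (95% counting interval 3.25 to 835, adjusted p = 0.00018). Adamts1 fell 11.3-fold, Adamts6 12.3-fold, Adamts19 9.13-fold, Adamts14 5.33-fold, Adamts10 3.81-fold and Adamts15 3.4-fold. Adamts4, an aggrecanase, fell 2.08-fold, and without NB2i replicate 2 its log2 change was −0.80 and it was no longer called. Adamts9, which cleaves versican, rose 3.41-fold, from 1.75 and 1.90 to 6.12 and 5.75 FPKM (log2 1.77, SE 0.079, adjusted p = 1.1e-14). The levels of Adamts9 ran from −F through F (2.27 and 2.47) and F2i (3.62 and 3.67) to NB2i with no overlap between neighbours. Adamts13 was lower in NB2i but under 2-fold (log2 −0.85), as was Mmp23 (log2 −0.67).

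The fibroblast marker sum was 6.35-fold higher in −F than in NB2i. Of 14 tested, 2 rose and 7 fell in NB2i. Among the 41 partners 7 rose and 11 fell, the most changed being Bmp1 (log2 −3.86), the proteoglycan Spock2 (−3.32), Adam33 (−3.25), the protease scavenger A2m (2.83) and urokinase, Plau (−2.52).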

How the data were processed

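Total poly-A RNA of 8 N33 ESC samples was sequenced by the authors as single-end reads on a BGISEQ-500, mapped to mm10 with Bowtie2 and quantified with RSEM, whose versions are not given in the sources used here. Per sample, the authors deposited for each gene an expected count, RSEM's estimate of its reads (29.8% were not whole numbers), and an FPKM, that estimate per transcript length and depth. Totals were from 20129641 to 20664488 expected counts, with a median of 20438563, so a gene without reads is known only to lie below about 3 counts.

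Samples were grouped from their labels. Expected counts were rounded and fitted over all 8 samples with edgeR 4.0.16 in R 4.3.3 (TMM factors 0.9774 to 1.0284, quasi-likelihood test, condition as the factor, 4 residual degrees of freedom). Testing required 10 counts in 2 or more samples, which 15287 of 20278 genes had, with Benjamini-Hochberg adjustment over all of them. Every adjusted p in the text is from this fit, and SE is the standard error of the log2 fold change. The biological coefficient of variation was 3.25%, so that p-values rest on the model: an exact permutation of 2 against 2 cannot go below 0.3333. Where a group had no reads, the fold change was bounded with 3 counts over its 2 samples. With 1 to 3 reads, the ratio was given with its exact 95% binomial interval.

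Members were described if their mean reached 1 FPKM in a condition or if they were called. Those with at least 5 FPKM, and the 3 called members of largest change per comparison, were given in every sample. Partners and marker lists were named by largest change. The members and lists were chosen with earlier results of these data known. Replicate numbers did not pair the samples (mean correlation of deviations −0.00355 over 6 pairs), and no pair of replicates agreed within sampling noise (chi-square per degree of freedom 1.837 to 3.546). Alternatives were DESeq2 1.42.0, its size factors, other filters, limma 3.58.1 on FPKM after log2 with a pseudocount of 1 or 0.1, a replicate block, the p threshold alone, CPM sums, and leaving out each sample. Promoters and gene overlaps were read from RefSeq (GRCm38.p6) and GENCODE M21.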

Additional observations from a re-analysis of the deposited data

How the results depend on the processing

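No member call reversed under any alternative in which its gene was tested. Of 808 values of the 60 member calls from the count-based alternatives, 797 kept direction and threshold and 11 were weaker. Calls whose gene was filtered out have no value and are not among these. The 808 do include fits without a sample of a condition outside the comparison. Such fits leave both compared conditions whole and say little about the calls between them. With 10 counts in every sample 33 of the 60 had a value, and with limma 48. Of those 48, 22 were weaker at a pseudocount of 1 and 3 at 0.1. With the replicate number as a block, members higher and lower numbered 10 and 1, 5 and 6, 1 and 17, and 4 and 16 in the order of the report, as without it, and all 60 calls were kept. Same-numbered samples did not deviate together, so the numbers are only names.

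For F against −F (10 higher, 1 lower), the count higher was 4 with 10 counts in every sample and 3 with limma at a pseudocount of 1. The count lower was 0 with DESeq2, with 10 counts in every sample and with limma at either pseudocount, 2 with DESeq2 size factors, 5 with the p threshold alone, and 1 to 2 when single samples were left out. For F2i against F (5 and 6), these were 3 and 2 with 10 counts in every sample, 2 and 2 with limma at a pseudocount of 1, and 11 and 11 with p alone. For NB2i against F2i (1 and 17), limma at a pseudocount of 1 gave 0 and 9, 10 counts in every sample gave 10 lower, and p alone gave 5 higher. For NB2i against −F (4 and 16), limma at a pseudocount of 1 gave 2 and 8, and 10 counts in every sample gave 10 lower. Requiring 10 counts in every sample removes genes absent from 1 condition, and a pseudocount of 1 shrinks the changes of low genes. Over all genes, main counts higher and lower were 855 and 252, 985 and 1070, 918 and 2038, and 1696 and 2456. With limma at a pseudocount of 1 they were 280 and 29, 355 and 376, 391 and 703, and 880 and 1103, and with p alone 3322 and 2831, 4179 and 4192, 5094 and 4704, and 5648 and 5419. With 10 counts in every sample, those that moved by over 1.5 times were 306 and 87, 528 and 582, 562 and 951, and, lower only, 1410. In F against −F, 141 genes were lower with DESeq2 and 148 with limma at 0.1. At these depths, genes with a few reads are known only to a wide counting interval. Counts in place of FPKM moved the mean ratio of TIMP to MMP RNA from 0.388 to 0.187 in −F, 0.975 to 0.55 in F, 1.67 to 1.42 in F2i and 1.28 to 0.398 in NB2i.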
